A study of Homo sapiens with 12 samples.

Results

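Proteasome subunit genes are the 42 genes, of 15090 gene symbols listed, whose symbol is PSMA, PSMB, PSMC, PSMD, PSME, PSMF or PSMG followed by a number. The interferon-inducible PSMB8, PSMB9 and PSMB10 were left out by rule, and 43 symbols with PSMB10 fit the pattern. By known role they make up 13 genes of the 20S core (7 of the alpha ring, 6 of the beta ring), 17 of the 19S cap (9 of the base, 8 of the lid), 5 activators and inhibitors, and 7 assembly chaperones. PSMB3 was not analysed here. The RNA came from MIA PaCa-2, an established human pancreatic cancer line labelled wild type, whose cells were kept in glutamine-free medium to which L-glutamine was added back. Sequencing covered 12 libraries in 4 groups of 3, which the series design calls biological replicates: 2 mM L-glutamine without drug, 2 mM with 0.5 µM gemcitabine, 40 mM without drug, and 40 mM with 0.5 µM gemcitabine, all at 48 h. Gemcitabine is a nucleoside analogue that blocks DNA synthesis and is used against pancreatic cancer. The title of the series concerns the effect of high-dose glutamine on chemosensitivity, and all groups are treatments of 1 cell line.

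The 26S proteasome degrades proteins that carry ubiquitin chains. Its barrel-shaped 20S core holds the proteolytic sites inside rings of beta subunits, closed off by rings of alpha subunits, and the 19S cap recognises ubiquitin, unfolds the substrate with a ring of ATPases and feeds it into the core. Dedicated chaperones build the core and the cap base, and other activators can replace the cap. When proteolysis falls short, the transcription factor NFE2L1 (also called NRF1) is known to raise transcription of subunit genes together.

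The libraries held 21723094 to 32811746 reads in listed genes. Levels are in reads per 1000000 reads (RPM) as the authors scaled them and were not divided by gene length, so they are compared between groups and not between genes. A gene was tested where at least 3 libraries reached 1 RPM, which kept 12789 genes and all 42 proteasome genes, and it was called changed at an adjusted p under 0.05 in limma, a linear model fitted across all genes. Fold changes are differences in log2(RPM + 1), with standard errors (SE). Keratins KRT8, KRT18 and KRT19, the epithelial markers, were all present, with summed levels of 3033 to 3180 RPM and 4134 to 4188 RPM at 2 mM without and with drug, and of 2388 to 2490 RPM and 2909 to 2981 RPM at 40 mM. Of 10 markers of blood, endothelial and fibroblast cells, 4 had a row: CD14, CDH5 and COL1A1 reached at most 1.61 RPM in any library. COL1A2, a fibroblast collagen gene, averaged 757 ± 11.1 and 606 ± 23.8 RPM (SD, n = 3) at 2 mM without and with drug, and 885 ± 15.4 and 678 ± 25.6 RPM at 40 mM. The summed level of the 4 markers ran from 748 to 770 RPM, 584 to 633 RPM, 869 to 898 RPM and 653 to 704 RPM in the same order of groups, and their part in the proteasome values was not tested.

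Promoter sequence is shown for 5 genes that rose with gemcitabine at 2 mM, 1 for each role that had a riser with a motif and a window; within each, the single window with most different motifs was taken, and ties went to the gene with the larger fold change. The sequences are the 250 bases before the RefSeq gene start on GRCh38.p14, written 5′ to 3′ along the gene's strand, and capitals mark matches, on either strand, to the antioxidant response core TGACNNNGC, the CCAAT box or the ETS core CCGGAAG. PSMA5, an alpha-ring subunit, lies on the minus strand (chr1:109426449-109426698).
PSMA5: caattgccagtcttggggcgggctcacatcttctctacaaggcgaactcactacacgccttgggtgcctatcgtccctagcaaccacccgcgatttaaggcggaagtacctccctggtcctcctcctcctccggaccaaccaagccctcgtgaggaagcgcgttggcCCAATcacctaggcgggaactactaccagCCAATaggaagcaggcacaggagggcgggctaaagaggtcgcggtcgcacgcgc
PSMC2, an ATPase of the cap base, lies on the plus strand (chr7:103347393-103347642).
PSMC2: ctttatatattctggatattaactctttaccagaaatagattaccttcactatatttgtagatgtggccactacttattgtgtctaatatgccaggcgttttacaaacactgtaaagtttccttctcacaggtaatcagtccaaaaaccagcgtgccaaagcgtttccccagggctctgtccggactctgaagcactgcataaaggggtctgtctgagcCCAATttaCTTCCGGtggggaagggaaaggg
PSMD12, a scaffold subunit of the lid, lies on the minus strand (chr17:67366578-67366827).
PSMD12: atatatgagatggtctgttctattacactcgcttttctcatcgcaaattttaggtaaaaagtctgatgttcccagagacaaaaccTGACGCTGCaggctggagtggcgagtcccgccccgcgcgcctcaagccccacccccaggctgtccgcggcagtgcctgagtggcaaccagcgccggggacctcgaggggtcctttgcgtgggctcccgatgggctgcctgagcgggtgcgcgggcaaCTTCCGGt
PSME3, the nuclear activator, lies on the plus strand (chr17:42833147-42833396).
PSME3: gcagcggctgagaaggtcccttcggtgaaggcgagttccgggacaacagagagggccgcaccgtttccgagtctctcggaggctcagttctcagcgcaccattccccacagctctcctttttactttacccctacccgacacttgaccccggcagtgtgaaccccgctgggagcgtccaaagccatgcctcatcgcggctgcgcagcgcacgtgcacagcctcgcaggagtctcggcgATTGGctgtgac
PSMG1, a chaperone of the alpha ring, lies on the minus strand (chr21:39183452-39183701).
PSMG1: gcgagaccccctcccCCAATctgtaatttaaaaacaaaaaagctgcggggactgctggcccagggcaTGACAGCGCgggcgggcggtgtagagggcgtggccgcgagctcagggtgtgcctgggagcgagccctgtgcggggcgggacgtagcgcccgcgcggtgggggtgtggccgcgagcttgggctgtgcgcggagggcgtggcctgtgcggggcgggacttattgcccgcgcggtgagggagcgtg

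Of the 42 genes, 36 had at least 1 such window, as did 27305 genes in all, and a gene with several start sites counts as matched if any of its windows holds the motif. TGACNNNGC, the core of the element that NFE2L1 and its relatives bind, was present for 11 of the 36 genes (30.6%, against 13.2% of all genes with a window). Those 11 were PSMA4 in the core, PSMC5, PSMD3 and PSMD12 in the cap, PSME1, PSME2 and PSME4 among the activators, and the chaperones PSMD5, PSMD9, PSMG1 and PSMG2. The ETS core CCGGAAG was present for 10 genes (27.8%, against 10.2%), of which 6 belonged to the 16 cap genes with a window and 0 to the 9 core genes. CCAAT was present for 16 genes (44.4%, against 37.0%). The heat shock core GAANNTTC was present for 0 genes, against 7.0% of all. These are matches of letters, and binding of any factor was not measured. The 27305 genes were not matched to the proteasome genes in base composition, expression or number of windows.

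Gemcitabine at 2 mM glutamine raised 21 of the 42 proteasome genes and lowered 0 in the limma test, against 17.5% of all tested genes higher and 17.1% lower. At an unadjusted p under 0.05, 25 were higher and 0 lower in limma, as they were by limma's voom on recovered reads. At an adjusted p under 0.05 voom called 23 higher and 0 lower, against 2397 higher and 2068 lower of the 12789 tested genes. Here and below, shares of all genes at an unadjusted p were not counted. In RNA of whole cultures, fewer cells of a kind and less RNA per cell cannot be told apart. The cap carried most of the calls. In the base 8 of 9 genes rose and in the lid 6 of 8, against 3 of 13 in the core, 2 of 5 activators and 2 of 7 chaperones. Changes were small: the median log2 fold change was 0.14 in the cap, 0.05 in the core, 0.08 in the activators and 0.05 in the chaperones, against -0.001 over all tested genes; the core median was 0.026 under quantile normalization. All 3 drug libraries lay above all 3 untreated libraries for 24 proteasome genes (23.2% of all tested genes did so), 15 of them in the cap.

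**Figure D1:**
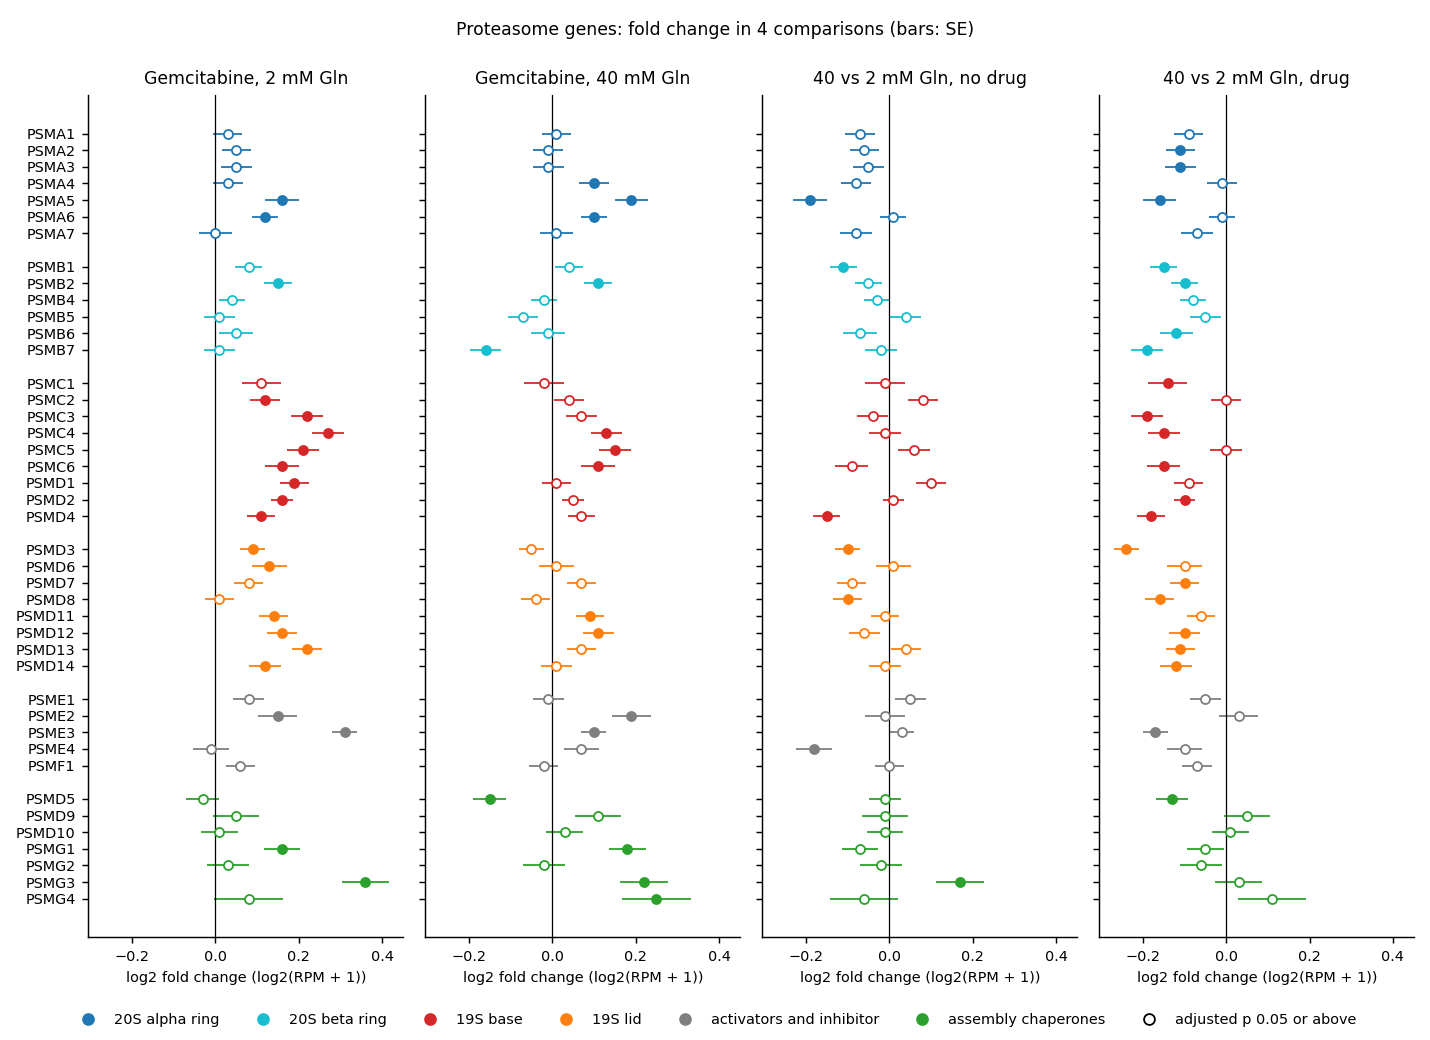
Log2 fold change in log2(RPM + 1) of the 42 proteasome genes (points, coloured by role, with bars for SE) in 4 comparisons; filled points have an adjusted p under 0.05 in limma. With gemcitabine at 2 mM glutamine 21 points are filled, all on the higher side, of which 14 are cap genes; with drug, the comparison of 40 with 2 mM has 21 filled points, all on the lower side.

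The ATPases of the base unfold substrates. PSMC4 stood at 106, 115 and 114 RPM in the untreated 2 mM libraries and 131, 138 and 135 in the treated ones, and at 107, 113 and 112 and then 121, 119 and 122 in those at 40 mM. All 3 drug libraries at 2 mM lay above every other library of the gene, and drug and untreated libraries did not overlap at either glutamine level. Its log2 fold change with drug was 0.27 ± 0.038 at 2 mM (adjusted p = 1.22e-06) and 0.13 ± 0.038 at 40 mM (adjusted p = 0.0118). PSMC3 was measured at 130, 146 and 136 RPM (2 mM, no drug), 160, 160 and 160 (2 mM, drug), 137, 131 and 131 (40 mM, no drug) and 140, 142 and 137 (40 mM, drug). The drug libraries at 2 mM were the highest and agreed closely, while at 40 mM the lowest drug library matched the highest untreated one to the nearest RPM. Its log2 fold change was 0.22 ± 0.038 at 2 mM (adjusted p = 2.46e-05) and 0.07 ± 0.038 at 40 mM (adjusted p = 0.169). At 40 mM PSMC3 was called higher in RPM without the authors' scaling (plain RPM: 0.11, adjusted p = 0.0218) and by voom (0.11, 0.0223). It was not called under quantile normalization or cyclic loess. The difference between its drug responses at 40 and 2 mM did not pass in limma (-0.15 ± 0.054, adjusted p = 0.149). PSMC5 had levels of 113, 115 and 110 RPM at 2 mM without drug, 128, 128 and 134 at 2 mM with drug, 114, 118 and 120 at 40 mM without drug and 124, 134 and 133 at 40 mM with drug. Both pairs of groups separated by drug did not overlap, with log2 fold changes of 0.21 ± 0.038 (adjusted p = 5.89e-05) and 0.15 ± 0.038 (adjusted p = 0.00269). FTSJ3, an rRNA-processing gene that shares exon bases with PSMC5 on the other strand, also rose with drug, by 0.24 and 0.19 on the log2 scale, and the share of its reads in the PSMC5 values was not tested. PSMC2 rose by 0.12 and PSMC6 by 0.16, and PSMC1 was the base gene that was not called (0.11 ± 0.047, adjusted p = 0.065).

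The other base genes are the scaffolds PSMD1 and PSMD2 and the ubiquitin receptor PSMD4. PSMD1 stood at 194, 201 and 197 RPM in the untreated 2 mM libraries and 232, 228 and 218 in the treated ones, and at 199, 215 and 219 and then 216, 212 and 210 in those at 40 mM. At 2 mM the drug libraries lay above all untreated ones, and at 40 mM they lay within the range of the untreated ones. Its log2 fold change was 0.19 ± 0.035 at 2 mM (adjusted p = 4.62e-05) and 0.01 ± 0.035 at 40 mM (adjusted p = 0.845). PSMD2 rose by 0.16 ± 0.026 and PSMD4 by 0.11 ± 0.033 at 2 mM.

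The lid removes ubiquitin chains through PSMD14 (0.12 ± 0.038 at 2 mM, adjusted p = 0.0163) and is otherwise made of scaffold subunits. PSMD13 was measured at 137, 135 and 143 RPM (2 mM, no drug), 162, 158 and 161 (2 mM, drug), 138, 141 and 146 (40 mM, no drug) and 145, 151 and 151 (40 mM, drug). At 2 mM the drug libraries were the highest of all and the groups did not overlap, whereas at 40 mM they overlapped. Its log2 fold change was 0.22 ± 0.035 at 2 mM (adjusted p = 9.67e-06) and 0.07 ± 0.035 at 40 mM (adjusted p = 0.121). At 40 mM PSMD13 was called higher under plain RPM (0.11, adjusted p = 0.0132), cyclic loess (0.09, 0.0407) and voom (0.11, 0.0146), but not under quantile normalization. The difference between its drug responses at 40 and 2 mM did not pass in limma (-0.14 ± 0.050, adjusted p = 0.128). SIRT3, which shares exon bases with PSMD13 on the other strand, fell by 0.23 with drug at 2 mM. PSMD12 had levels of 123, 131 and 127 RPM at 2 mM without drug, 141, 144 and 140 at 2 mM with drug, 119, 124 and 123 at 40 mM without drug and 134, 134 and 128 at 40 mM with drug. Drug libraries lay above untreated ones at both glutamine levels, with log2 fold changes of 0.16 ± 0.037 (adjusted p = 0.000923) and 0.11 ± 0.037 (adjusted p = 0.019). PSMD11, PSMD6 and PSMD3 rose at 2 mM by 0.14, 0.13 and 0.09. PSMD7 (0.08 ± 0.035, adjusted p = 0.0722) and PSMD8 (0.01 ± 0.035, adjusted p = 0.809) were not called.

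In the core, the alpha-ring genes PSMA5 and PSMA6 and the beta-ring gene PSMB2 rose at 2 mM. PSMA6 stood at 185, 184 and 184 RPM in the untreated 2 mM libraries and 204, 197 and 200 in the treated ones, and at 185, 186 and 186 and then 202, 199 and 195 in those at 40 mM. Drug libraries lay above untreated ones at both glutamine levels (0.12 ± 0.031, adjusted p = 0.00327, and 0.10 ± 0.031, adjusted p = 0.0141). PSMB2 was measured at 191, 192 and 200 RPM (2 mM, no drug), 214, 222 and 212 (2 mM, drug), 184, 192 and 187 (40 mM, no drug) and 201, 199 and 205 (40 mM, drug). Its drug libraries also lay above the untreated ones at both levels (0.15 ± 0.033, adjusted p = 0.000442, and 0.11 ± 0.033, adjusted p = 0.0117). The proteolytic subunits are PSMB5, PSMB6 and PSMB7, with chymotrypsin-like, caspase-like and trypsin-like activity. None of the 3 was called at 2 mM: their log2 fold changes were 0.01 ± 0.037, 0.05 ± 0.040 and 0.01 ± 0.038, with adjusted p of 0.799, 0.339 and 0.799. Without replicate 2 of the untreated 2 mM group, PSMB6 was called (0.11, adjusted p = 0.0435), and PSMB1 (0.08 ± 0.033, adjusted p = 0.0606) was called without replicate 1 of the drug group (adjusted p = 0.0366).

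PSME3, which forms the nuclear 11S activator, had the smallest p of the 42 genes. PSME3 had levels of 234, 238 and 238 RPM at 2 mM without drug, 290, 293 and 297 at 2 mM with drug, 237, 249 and 241 at 40 mM without drug and 258, 259 and 263 at 40 mM with drug. The 2 mM drug libraries lay far above every other library, and at 40 mM drug and untreated libraries did not overlap either. The log2 fold change was 0.31 ± 0.030 at 2 mM (adjusted p = 4.26e-10) and 0.10 ± 0.030 at 40 mM (adjusted p = 0.0089). BECN1, its neighbour on the other strand with shared exon bases, differed by 0.02 ± 0.055 at 2 mM (adjusted p = 0.785). PSME1 and PSME2 form the interferon-inducible activator. PSME2 stood at 65.4, 71.8 and 69.4 RPM in the untreated 2 mM libraries and 72.8, 78.4 and 78.6 in the treated ones, and at 72.3, 68.9 and 64.7 and then 78.7, 79 and 77.2 in those at 40 mM. Its drug libraries lay above the untreated ones at both levels (0.15 ± 0.047, adjusted p = 0.0116, and 0.19 ± 0.047, adjusted p = 0.00212). PSME1 was measured at 137, 136 and 135 RPM (2 mM, no drug), 139, 146 and 146 (2 mM, drug), 146, 141 and 134 (40 mM, no drug) and 136, 145 and 136 (40 mM, drug). The drug libraries at 2 mM lay just above the untreated ones, without a call (0.08 ± 0.037, adjusted p = 0.105), and at 40 mM the groups overlapped (-0.01 ± 0.037, adjusted p = 0.804). PSMF1, an inhibitor of the core, was not called in any comparison.

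**Figure D2:**
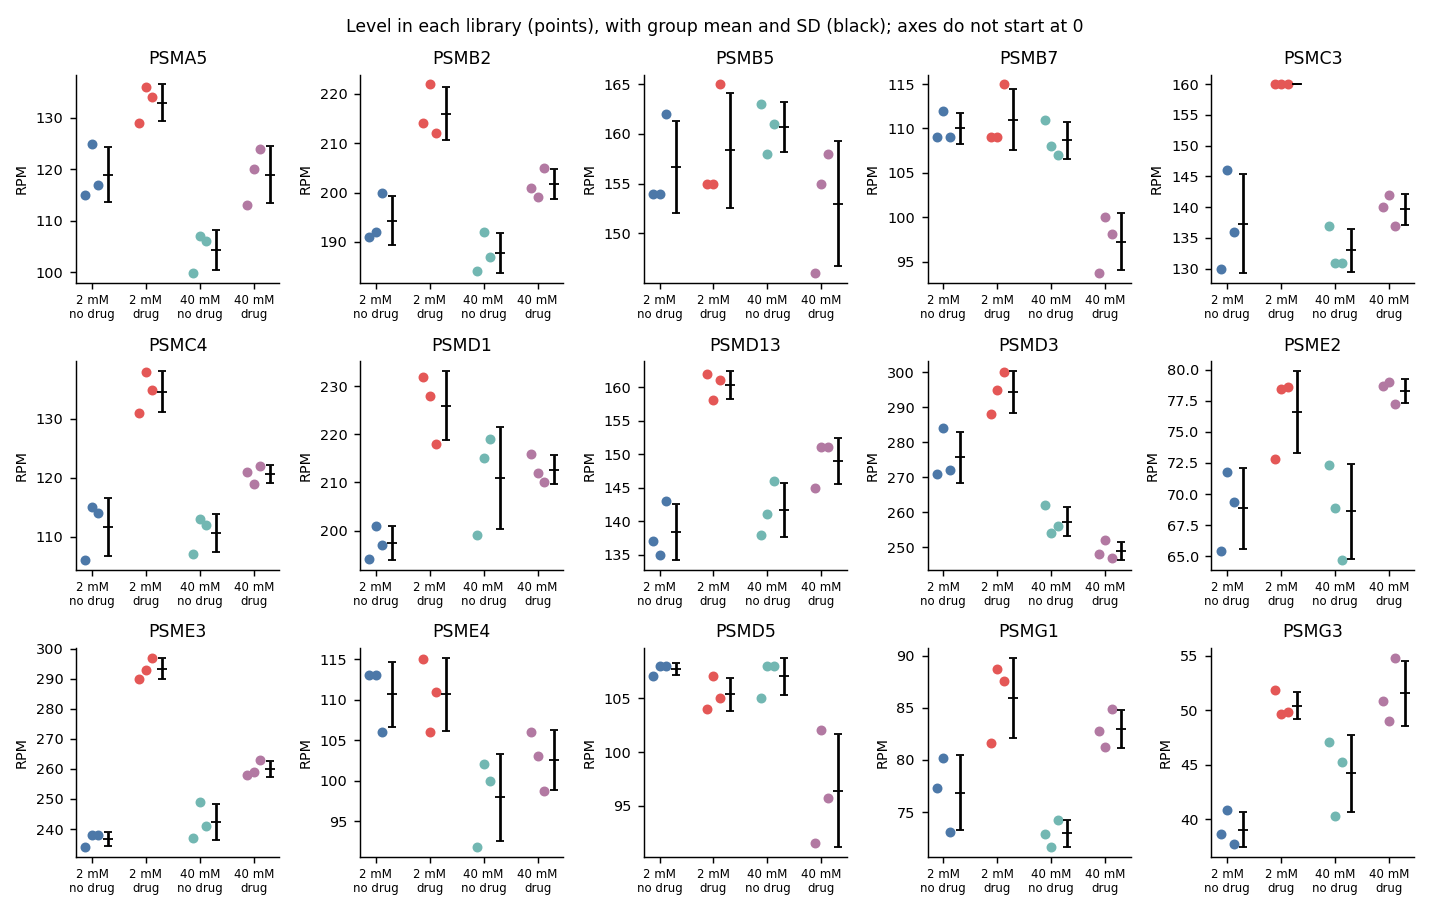
Level in RPM of 15 proteasome genes in each library (points), with group mean and SD (black), for 2 and 40 mM glutamine without and with gemcitabine; axes do not start at 0. PSMC4, PSMD13 and PSME3 are highest where 2 mM glutamine and drug were combined, and PSMB7 and PSMD5 are lowest where 40 mM glutamine and drug were combined.

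Among the assembly chaperones, PSMG3 and PSMG1 rose with drug at 2 mM. PSMG3 had levels of 38.6, 40.8 and 37.7 RPM at 2 mM without drug, 51.8, 49.6 and 49.8 at 2 mM with drug, 47.1, 40.3 and 45.2 at 40 mM without drug and 50.8, 49 and 54.8 at 40 mM with drug. Drug libraries lay above untreated ones at both levels, and the untreated libraries at 40 mM spread widely. Its log2 fold change was 0.36 ± 0.057 at 2 mM (adjusted p = 6.20e-06) and 0.22 ± 0.057 at 40 mM (adjusted p = 0.00342). PSMG3-AS1, its antisense neighbour, fell by 0.46 and by 0.27 in the same comparisons. PSMG1 stood at 77.3, 80.2 and 73.1 RPM in the untreated 2 mM libraries and 81.6, 88.7 and 87.6 in the treated ones, and at 72.9, 71.7 and 74.3 and then 82.8, 81.2 and 84.9 in those at 40 mM. It separated by drug at both levels (0.16 ± 0.044, adjusted p = 0.00454, and 0.18 ± 0.044, adjusted p = 0.00147). PSMG2, which pairs with PSMG1, and the base chaperones PSMD9 and PSMD10 were not called in any comparison.

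All 21 calls at 2 mM held under plain RPM, quantile normalization and cyclic loess, and 16 held under every alternative run. PSMC2 missed the threshold without replicate 3 of the drug group (adjusted p = 0.0638); PSMD3, PSMD6, PSMD14 and PSME2 each missed it without 3 or 4 single libraries, with adjusted p up to 0.0885, 0.0787, 0.0979 and 0.0915. Each of the 6 libraries except replicate 2 of the untreated group ended at least 1 of these calls.

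At 40 mM glutamine, gemcitabine raised 14 proteasome genes (14.1% of all tested genes were higher) and lowered 2 (16.2% were lower). Under the deposited scaling the risers were spread over the roles. They were PSMA4, PSMA5, PSMA6 and PSMB2 in the core and PSMC4, PSMC5, PSMC6, PSMD11 and PSMD12 in the cap. The activators PSME2 and PSME3 and the chaperones PSMG1, PSMG3 and PSMG4 also rose. Cap risers numbered 10 under plain RPM, 7 under quantile normalization, 9 under cyclic loess and 10 by voom, and core risers 4 under each. Median log2 fold changes were 0.01 in the core, 0.07 in the cap, 0.07 in the activators and 0.11 in the chaperones, against -0.005 over all tested genes. Under plain RPM, quantile normalization and cyclic loess the core median was 0.053, 0.032 and 0.038, and the cap median was 0.109, 0.090 and 0.093. Drug libraries lay above all untreated ones for 13 genes and below them for 4 (19.2% and 21.4% of all tested genes). Over all called genes, 46.6% were higher under the deposited scaling and 62.9% under plain RPM, where 20 proteasome genes were higher.

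PSMA5 was measured at 115, 125 and 117 RPM (2 mM, no drug), 129, 136 and 134 (2 mM, drug), 99.8, 107 and 106 (40 mM, no drug) and 113, 120 and 124 (40 mM, drug). Drug and untreated libraries did not overlap at either glutamine level, and the untreated 40 mM libraries were the lowest. Its log2 fold change with drug was 0.19 ± 0.040 at 40 mM (adjusted p = 0.000396) and 0.16 ± 0.040 at 2 mM (adjusted p = 0.00286). PSMG4, the partner of PSMG3, had levels of 29.9, 30.6 and 29.2 RPM at 2 mM without drug, 29.1, 30.5 and 35.7 at 2 mM with drug, 32.7, 23.7 and 30.2 at 40 mM without drug and 31.9, 34.8 and 36 at 40 mM with drug. The groups at 40 mM overlapped, and 1 untreated library was low. The fold change of 0.25 ± 0.082 (adjusted p = 0.0185) missed the threshold without replicate 2 of the untreated 40 mM group (adjusted p = 0.261), and also without replicates 2 and 3 of the drug group left out singly (0.062 and 0.0869). At 2 mM PSMG4 differed by 0.08 ± 0.082 (adjusted p = 0.489).

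The genes that fell at 40 mM were the proteolytic subunit PSMB7 and the base chaperone PSMD5. PSMB7 stood at 109, 112 and 109 RPM in the untreated 2 mM libraries and 109, 109 and 115 in the treated ones, and at 111, 108 and 107 and then 93.7, 100 and 98.1 in those at 40 mM. The 40 mM drug libraries lay below all others. The fall was -0.16 ± 0.038 on the log2 scale (adjusted p = 0.00197). PSMD5 was measured at 107, 108 and 108 RPM (2 mM, no drug), 104, 107 and 105 (2 mM, drug), 105, 108 and 108 (40 mM, no drug) and 91.6, 102 and 95.7 (40 mM, drug). Its 40 mM drug libraries were again the lowest, with 1 of them closer to the rest (-0.15 ± 0.039, adjusted p = 0.00269). Both falls held under every alternative run, as did the rises of PSMA5, PSMC5, PSME2, PSMG1 and PSMG3.

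The other 9 rises at 40 mM were each lost without at least 1 library. PSMA6 was lost without replicate 1 of the drug group (adjusted p = 0.0599), PSMC4 and PSME3 without replicate 1 of the untreated group (0.073 and 0.0512), and PSMB2 without replicate 1 of the untreated or 3 of the drug group (0.0535 and 0.0516). PSMA4, PSMC6, PSMD11 and PSMD12 were lost without 3 to 5 single libraries, with adjusted p up to 0.144, 0.214, 0.168 and 0.0945. Each of the 6 libraries ended at least 1 call, and the count of risers was 8 without replicate 1 of the untreated group and 9 without replicate 2 of the drug group.

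Between 2 and 40 mM glutamine without drug, 1 proteasome gene was higher and 6 were lower at 40 mM, against 8.41% and 9.12% of all tested genes. All 3 libraries lay lower for 7 proteasome genes and higher for 0 (15.8% and 15.4% of all tested genes). This comparison and the drug response at 2 mM share the untreated 2 mM libraries. The median over the 42 genes was -0.018 under the deposited scaling and 0.003 under plain RPM, and over all called genes the higher share was 48% and 61.2%. The genes that fell were PSMA5 (-0.19 ± 0.040, adjusted p = 0.000816), PSMB1, PSMD3 (-0.10), PSMD4 (-0.15), PSMD8 (-0.10) and PSME4, and the gene that rose was PSMG3 (0.17 ± 0.057, adjusted p = 0.032). PSMD1 lay just outside (0.10 ± 0.035, adjusted p = 0.0534) and was called higher under plain RPM (0.12, adjusted p = 0.0169) and without replicate 1 of the 40 mM group (0.14, adjusted p = 0.00669).

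PSMB1, a beta-ring subunit without catalytic activity, had levels of 215, 220 and 213 RPM at 2 mM without drug, 221, 232 and 231 at 2 mM with drug, 207, 197 and 197 at 40 mM without drug and 201, 205 and 210 at 40 mM with drug. The 40 mM libraries lay below the 2 mM libraries in both drug states (-0.11 ± 0.033, adjusted p = 0.0183 without drug, and -0.15 ± 0.033, adjusted p = 0.000854 with drug). PSME4, an activator known for histone degradation, stood at 113, 113 and 106 RPM in the untreated 2 mM libraries and 115, 106 and 111 in the treated ones, and at 91.8, 102 and 100 and then 106, 103 and 98.7 in those at 40 mM. Without drug the 40 mM libraries lay below the 2 mM libraries, and with drug they overlapped (-0.18 ± 0.043, adjusted p = 0.0043, and -0.10 ± 0.043, adjusted p = 0.0856). PSMA5, PSMD4 and PSME4 kept the call under all 3 other scalings and without each single library, and PSME4 lost it without the mean-variance trend (adjusted p = 0.058). PSMG3 lost it without replicates 1 or 3 of either group (adjusted p from 0.0804 to 0.169), PSMB1 without replicate 2 of the 2 mM group (0.0828) or replicates 2 or 3 of the 40 mM group (0.0604 and 0.085), PSMD3 without the same 3 libraries (0.0588 to 0.114), and PSMD8 without replicates 2 or 3 of the 2 mM group or 1 or 3 of the 40 mM group (0.0722 to 0.264). The count of lower genes was 3 without replicate 2 of the 2 mM group and 3 without replicate 3 of the 40 mM group.

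Between 40 and 2 mM glutamine with drug present, 21 proteasome genes were lower and 0 were higher, against 13.0% and 8.62% of all tested genes. At an unadjusted p under 0.05, 27 were lower and 0 higher in limma, and 11 lower and 0 higher by voom. At an adjusted p under 0.05 voom called 8 lower and 0 higher, against 959 lower and 2041 higher of the 12789 tested genes. The 21 lower genes comprised 7 of 13 core genes, 12 of 17 cap genes, the activator PSME3 and the chaperone PSMD5. The median log2 fold change was -0.103 over the 42 genes, with -0.095 in the core, -0.107 in the cap, -0.074 in the activators and 0.014 in the chaperones. All 3 libraries at 40 mM lay below all 3 at 2 mM for 27 proteasome genes and above for 0 (20.5% and 17.0% of all tested genes), and these 27 included all 8 lid genes.

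PSMD3, a lid scaffold, was measured at 271, 284 and 272 RPM (2 mM, no drug), 288, 295 and 300 (2 mM, drug), 262, 254 and 256 (40 mM, no drug) and 248, 252 and 247 (40 mM, drug). With drug the glutamine groups lay far apart, and without drug they also did not overlap. The log2 fold change with drug was -0.24 ± 0.030 (adjusted p = 4.49e-07). PSMD8, another lid scaffold, had levels of 197, 220 and 208 RPM at 2 mM without drug, 212, 206 and 212 at 2 mM with drug, 192, 195 and 193 at 40 mM without drug and 187, 190 and 186 at 40 mM with drug. The 40 mM libraries lay below the 2 mM libraries in both drug states, by a wider margin with drug (-0.16 ± 0.035, adjusted p = 0.000913). In the beta ring PSMB7 fell by 0.19 (adjusted p = 0.000497) and in the base PSMC3 fell by 0.19 (adjusted p = 0.000312) and PSMD4 by 0.18 (adjusted p = 0.000144). PSME3 fell by 0.17 (adjusted p = 5.55e-05).

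The remaining core genes that passed differed by less. PSMA2 stood at 193, 203 and 201 RPM in the untreated 2 mM libraries and 202, 207 and 210 in the treated ones, and at 190, 187 and 197 and then 182, 190 and 200 in those at 40 mM. With drug, the 40 mM libraries lay below the 2 mM ones, with 1 of them close to the lowest of those (-0.11 ± 0.035, adjusted p = 0.0173). PSMA3 was measured at 134, 125 and 131 RPM (2 mM, no drug), 131, 136 and 136 (2 mM, drug), 128, 125 and 124 (40 mM, no drug) and 126, 120 and 128 (40 mM, drug). The groups with drug again did not overlap (-0.11 ± 0.037, adjusted p = 0.0303). PSMB6 had levels of 128, 146 and 132 RPM at 2 mM without drug, 135, 145 and 141 at 2 mM with drug, 129, 129 and 129 at 40 mM without drug and 125, 128 and 132 at 40 mM with drug. The drug groups were separate and the untreated ones overlapped, with 1 high untreated library at 2 mM (-0.12 ± 0.040, adjusted p = 0.024). PSMB5 stood at 154, 154 and 162 RPM in the untreated 2 mM libraries and 155, 155 and 165 in the treated ones, and at 163, 158 and 161 and then 146, 155 and 158 in those at 40 mM. All 4 groups of this chymotrypsin-like subunit overlapped, and it was called in no comparison (-0.05 ± 0.037 with drug, adjusted p = 0.372).

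The count of lower genes in this comparison depended on the scaling between libraries. The deposited scaling factors, by which values are divided, were 1.0263 to 1.0292 in the 40 mM drug libraries and at most 1.002 in the other 9. Deposited RPM thus summed to 971668 to 974406 in the 40 mM drug libraries and to at least 998053 in the other 9. Under plain RPM 7 genes were lower, and under quantile normalization or cyclic loess 10, with medians over the 42 genes of -0.049, -0.056 and -0.055, over the core of -0.041, -0.035 and -0.045, and over the cap of -0.053, -0.082 and -0.081. Over all called genes, the higher share was 39.9% under the deposited scaling, 68.2% under plain RPM, 50.1% under quantile normalization and 49.6% under cyclic loess. PSMB1, PSMB7, PSMC3, PSMD3, PSMD4, PSMD8 and PSME3 were called under every alternative run. Without replicate 1 of the 40 mM drug group the count was 11, and without replicate 2 or replicate 3 of the 2 mM drug group it was 13. PSMA2, PSMA3, PSMB2, PSMB6, PSMC1, PSMD2, PSMD7, PSMD12, PSMD13, PSMD14 and PSMD5 were lost under all 3 other scalings. All of these except PSMD2, and PSMC6, were also lost without 2 or more single libraries, with adjusted p up to 0.178, and each of the 6 libraries ended at least 1 call.

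**Figure D3:**
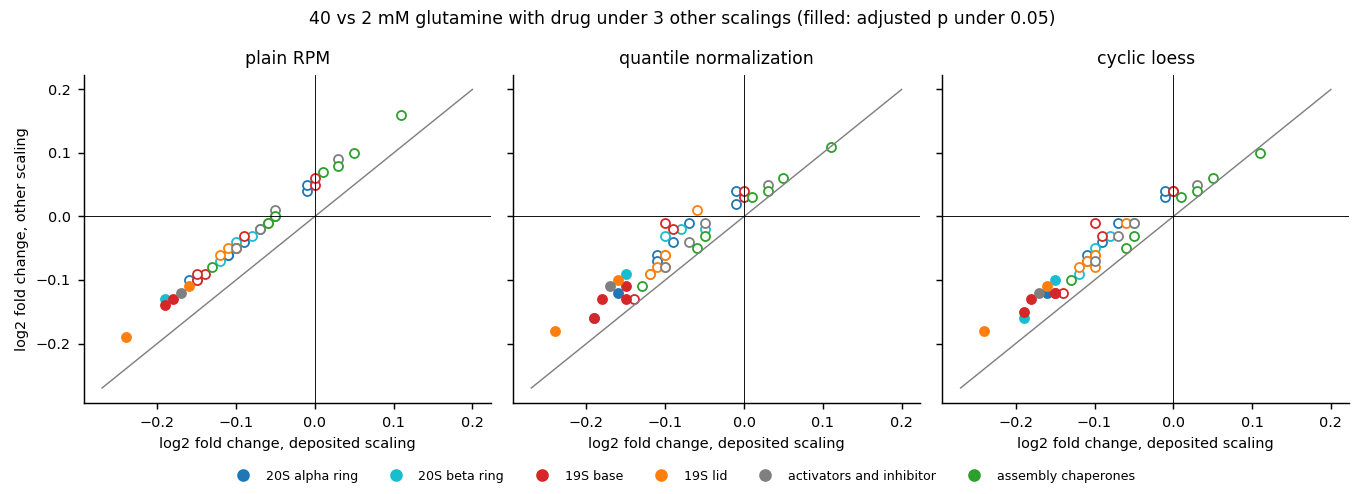
Log2 fold change of 40 against 2 mM glutamine with drug for the 42 proteasome genes under the deposited scaling (x axis) and under plain RPM, quantile normalization or cyclic loess (y axis); filled points have an adjusted p under 0.05 under the other scaling, and the line marks equal values. Most points lie above the line in all 3 panels, and 7, 10 and 10 are filled.

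Whether the drug response differed between glutamine levels was tested with the interaction term, the response at 40 mM minus that at 2 mM. It was lower for 2 proteasome genes and higher for 0 (1.47% and 0.727% of all tested genes). At an unadjusted p under 0.05, 9 were lower and 0 higher in limma, and 8 lower and 1 higher by voom. At an adjusted p under 0.05 voom called 1 lower and 0 higher, against 98 lower and 141 higher of the 12789 tested genes. PSME3 differed by -0.21 ± 0.042 (adjusted p = 0.00498), and the term held without each single library and under 3 other scalings, but not without the mean-variance trend (adjusted p = 0.113). PSMD1 differed by -0.18 ± 0.050 (adjusted p = 0.0431), and this was lost without any of 9 of the 12 libraries (adjusted p 0.0573 to 0.148), all except replicate 2 of the untreated 2 mM group, replicate 3 of the drug 2 mM group and replicate 1 of the untreated 40 mM group, and under the 3 other scalings (0.122 to 0.194). Without replicate 2 of the untreated 2 mM group, 4 genes were lower, among them PSMC3 (-0.20, adjusted p = 0.0399) and PSMD3 (-0.16, adjusted p = 0.0451). The estimate was negative for all 17 cap genes, with a median of -0.11, and the medians were -0.04 in the core, -0.07 in the activators and 0.02 in the chaperones, against -0.01 over all tested genes; 16 of the 17 cap genes did not pass. Under plain RPM, quantile normalization and cyclic loess the cap median was -0.074, -0.063 and -0.059, and the core median was -0.010, -0.003 and -0.008. Over all called genes the higher share of this term was 33.1% under the deposited scaling and 58.9% under plain RPM.

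The cap and the core can be compared within a library, where any scaling between libraries largely cancels. The mean log2 level of the 17 cap genes minus that of the 13 core genes was -0.156 ± 0.012 (SD, n = 3) at 2 mM without drug, with libraries from -0.170 to -0.148. It was -0.070 ± 0.013 at 2 mM with drug, from -0.078 to -0.055. At 40 mM it was -0.120 ± 0.029 without drug, from -0.150 to -0.093, and -0.091 ± 0.026 with drug, from -0.121 to -0.074. The drug libraries at 2 mM did not overlap the untreated ones, and the 40 mM groups overlapped each other. Since genes differ in length, the sign of this difference has no meaning and its change between groups alone is read. The summed level of the 42 genes was 6278 to 6512 RPM and 6845 to 6940 RPM at 2 mM without and with drug, and 6229 to 6274 RPM and 6360 to 6481 RPM at 40 mM.

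**Figure D4:**
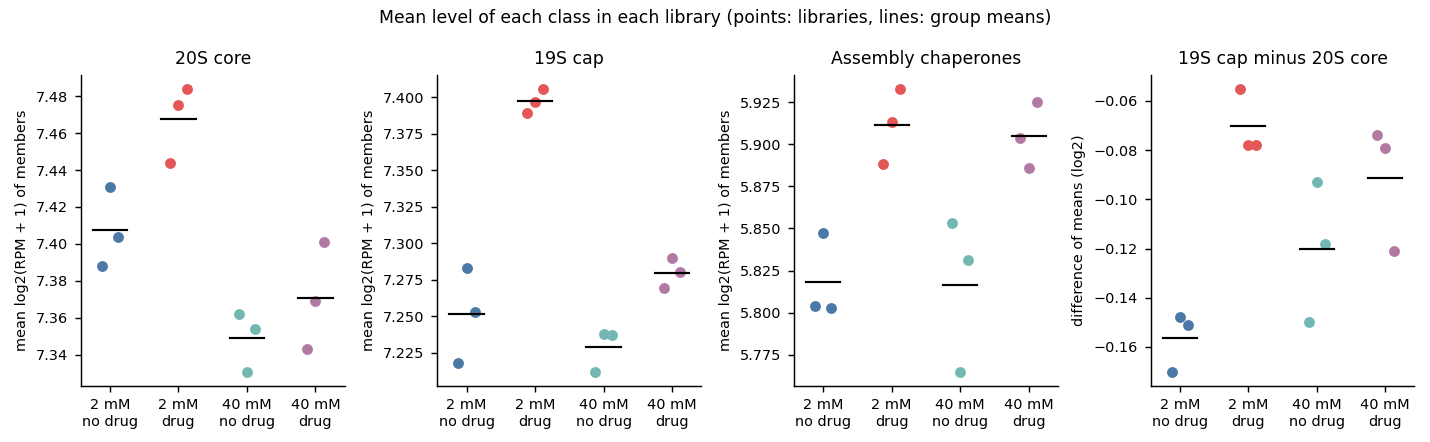
Mean log2(RPM + 1) of the 13 core, 17 cap and 7 chaperone genes in each library (points, with lines for group means), and the cap mean minus the core mean, for 2 and 40 mM glutamine without and with gemcitabine; axes do not start at 0. The difference in the last panel runs from -0.170 to -0.148 at 2 mM without drug and from -0.078 to -0.055 with drug, and the 40 mM groups overlap.

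Over the 4 pairwise comparisons and the interaction, 33 of the 42 genes were called at least once and 9 were not: PSMA1, PSMA7, PSMB4, PSMB5, PSME1, PSMF1, PSMD9, PSMD10 and PSMG2. The comparisons share libraries and are not independent of each other. How many of all tested genes were called at least once was not counted. For 11 genes a named pseudogene is annotated in GENCODE 29, which is the case for PSMA2, PSMA3, PSMA6, PSMB7, PSMC1, PSMD4, PSMD7, PSMD8, PSMD12, PSMD10 and PSME2, and reads could be split between copies. Exon bases are shared with a gene on the other strand for 17 genes, 12 of them with one that has a row. The sources used here do not give the use of strand in counting. Reads of such pairs therefore cannot be told apart.

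Genes that work with these subunits were described from fixed lists. Of 11 other parts and partners of the proteasome, 5 rose with drug at 2 mM and 0 fell in limma, against 17.5% and 17.1% of all tested genes. At an unadjusted p under 0.05, 5 were higher and 1 lower, both in limma and by voom. At an adjusted p under 0.05 voom called 5 higher and 0 lower. ADRM1, a ubiquitin receptor of the cap, had 79, 82.6 and 83.9 RPM at 2 mM without drug and 103, 103 and 106 with drug, and 88, 78.8 and 82.2 without and 89.9, 95.4 and 95.9 with drug at 40 mM. Its groups separated by drug at both levels (0.34 ± 0.043, adjusted p = 1.03e-07, and 0.17 ± 0.043, adjusted p = 0.00198). UCHL5, the deubiquitinase that ADRM1 binds, rose by 0.29 ± 0.040 (adjusted p = 8.35e-07) and 0.20 ± 0.040 (adjusted p = 0.000235). PITHD1 rose by 0.22 and 0.18, the last lost without replicate 3 of the 40 mM drug group (adjusted p = 0.0646), and the core maturation factor POMP rose by 0.13 at 2 mM. USP14, another cap deubiquitinase, rose by 0.09 (adjusted p = 0.0222), which was lost without replicate 1 of the untreated group (0.133) or replicates 1 or 2 of the drug group (0.0566 and 0.0888). The USP14 call was also lost under quantile normalization (0.07, adjusted p = 0.0667) and without the mean-variance trend (0.0894). At 40 mM 3 partners rose with drug and 2 fell, against 14.1% and 16.2% of all tested genes. Between glutamine levels 1 was higher and 0 lower without drug (8.41% and 9.12% of all tested genes), and 1 was higher and 5 lower with drug (8.62% and 13.0%). The last counts depended on the scaling: voom called 2 higher and 2 lower, ADRM1 and UCHL5 lost the call under plain RPM (adjusted p = 0.105 and 0.0541), and USP14 was called higher under plain RPM, quantile normalization, cyclic loess and voom (adjusted p 0.00641 to 0.00977). PSMB10, an interferon-inducible catalytic subunit, went from 20.5 ± 1.03 to 24.1 ± 1.34 RPM (SD, n = 3) with drug at 2 mM (0.23 ± 0.073, adjusted p = 0.0146), and this was lost without replicate 2 of the untreated group (0.0652) or replicates 2 or 3 of the drug group (0.0686 and 0.0616). PSMB8 and PSMB9 were not analysed here.

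Of the 5 genes of the NFE2L1 route, 0 changed with drug at 2 mM in limma or by voom, against 17.5% higher and 17.1% lower of all tested genes in limma. At an unadjusted p under 0.05, 0 were higher and 1 lower in limma, and 1 was higher and 1 lower by voom. Only RNA was measured, so these values do not cover the protein or activity of NFE2L1. Without replicate 3 of the untreated group NGLY1 was lower (-0.22, adjusted p = 0.0171), and without replicate 2 of that group VCP was higher (0.09, adjusted p = 0.033). NFE2L1 itself had 238, 244 and 233 RPM at 2 mM without drug, 241, 240 and 240 with drug, 259, 254 and 261 at 40 mM without drug and 245, 253 and 249 with drug. Its groups at 2 mM overlapped (0.01 ± 0.030, adjusted p = 0.824), while the untreated 40 mM libraries were the highest (0.11 ± 0.030 against 2 mM, adjusted p = 0.0082). That call was lost without replicate 3 of the untreated 2 mM group (adjusted p = 0.0522). With drug, NFE2L1 differed between glutamine levels by 0.05 ± 0.030 (adjusted p = 0.247) under the deposited scaling, and was called higher at 40 mM under plain RPM, quantile normalization, cyclic loess and voom (0.10 to 0.11, adjusted p 0.0074 to 0.00987). VCP, the ATPase that extracts NFE2L1 from the endoplasmic reticulum membrane, rose with glutamine without drug (0.13 ± 0.030, adjusted p = 0.00342) and fell with drug at 40 mM (-0.14 ± 0.030, adjusted p = 0.000581). The rise was lost without the mean-variance trend (adjusted p = 0.0599). NGLY1 and SYVN1, which deglycosylate and ubiquitinate NFE2L1, respectively, were not called in the pairwise comparisons of all libraries under the deposited scaling. With drug, SYVN1 was called higher at 40 mM under plain RPM (0.16, adjusted p = 0.0277) and by voom (0.15, 0.0342). NGLY1 was called lower with drug at 2 mM under quantile normalization (-0.16, with an adjusted p that rounds to 0.05). Of 13 genes of ubiquitin and substrate delivery, 5 rose and 2 fell with drug at 2 mM (17.5% and 17.1% of all tested genes), and 1 rose and 3 fell at 40 mM (14.1% and 16.2%). NPLOC4, a cofactor of VCP, rose by 0.27 ± 0.036 (adjusted p = 3.06e-07) and 0.19 ± 0.036 (adjusted p = 8.77e-05), and the ubiquitin-ribosomal fusion gene RPS27A fell by 0.13 and 0.18. UBB, a polyubiquitin gene, differed with drug at 40 mM by 0.05 ± 0.028 (adjusted p = 0.138) under the deposited scaling and was called higher under the other scalings and voom (0.10 to 0.13, adjusted p 0.000218 to 0.00593). Between glutamine levels, 3 of the 13 were higher and 2 lower without drug (8.41% and 9.12% of all tested genes). With drug 0 were higher and 5 lower (8.62% and 13.0%); among them RPS27A was not called under quantile normalization or cyclic loess (adjusted p = 0.137 and 0.238), and UBB fell by 0.09 but was not called under any other scaling (0.307 to 0.962).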

How the data were processed

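RNA of 12 MIA PaCa-2 libraries was analysed, in 4 groups of 3 taken from the sample titles. The deposited table holds log2 values, which the authors made. By its values each equals log2(RPM + 1), where RPM is reads per 1000000, divided by a scaling factor of 0.9794 to 1.0292 for each library. In every library 100% of values were whole multiples of 1 read within 0.05 read, so reads were recovered, 21723094 to 32811746 per library. The median tested gene had 715 reads, whose counting error amounts to a coefficient of variation of 3.7%. Aligner, genome build, counting program and use of strand: not given in the sources used here.

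Genes with at least 1 RPM in at least 3 libraries (12789) were fitted with limma 3.58.1 (R 4.3.3) with a mean for each of the 4 groups, all 12 libraries together, a mean-variance trend and moderation. Two-sided p-values were adjusted by Benjamini-Hochberg across every tested gene, with a threshold of 0.05. The fit was also run on simulated data, without the deposited scaling. The outcome is not given here and is not used as support for the small changes reported. Tables were handled with Python 3.11.15, pandas 2.3.3 and numpy 2.4.6. Alternatives were plain RPM, quantile normalization, cyclic loess, voom on recovered reads, other filters and pseudocount, no trend, robust moderation, compared groups only, the replicate number as a block, and each library left out. Levels of every library are given for 25 genes: up to 4 per role with the largest called change, those with a called interaction, PSMB5 to PSMB7, PSME1 and PSME2. The genes and lists were chosen with earlier results of these data known. Promoter windows came from RefSeq (GRCh38.p14) by symbol. Replicate pairs within a group differed by more than counting noise (chi-square over degrees of freedom 2.42 to 5.87), so each library counted once.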

Additional observations from a re-analysis of the deposited data

Results flagged for a closer look

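Among the 42 proteasome genes and the lists of partner genes, the drug response differed between the glutamine levels for 3 by the interaction test in limma. Over all tested genes the term was lower for 1.47% and higher for 0.727%. PSME3 differed by -0.21 on the log2 scale (adjusted p = 0.00498), with a drug response of 0.31 at 2 mM and 0.10 at 40 mM, and missed the threshold without the mean-variance trend (adjusted p = 0.113). PSMD1 differed by -0.18 (adjusted p = 0.0431), with 0.19 and 0.01. It missed the threshold in 14 of 22 alternatives, among them plain RPM, quantile normalization and cyclic loess (adjusted p 0.122 to 0.194). VCP, the ATPase of the NFE2L1 route, differed by -0.19 (adjusted p = 0.0112), with 0.05 at 2 mM and -0.14 at 40 mM. The VCP term missed the threshold under quantile normalization (adjusted p = 0.0524), cyclic loess (0.0528) and without the mean-variance trend (0.169).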

How the results depend on the processing

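Leaving out single libraries gave 16 to 22 proteasome genes higher with drug at 2 mM, 8 to 12 higher and 2 lower with drug at 40 mM, 0 to 1 higher and 3 to 7 lower with glutamine without drug, 11 to 19 lower with glutamine with drug, and 1 to 4 lower for the interaction. Genes higher with glutamine without drug numbered 2 with a filter at 5 RPM, plain RPM, quantile normalization, cyclic loess, voom or robust moderation, and 0 without the trend or with the compared groups only. Genes lower in that comparison numbered 3 under plain RPM, quantile normalization or voom and 2 without the trend. With drug present, genes lower with glutamine numbered 7 under plain RPM, 10 under quantile normalization, cyclic loess or no trend, and 8 under voom. Lower interactions numbered 1 under plain RPM, quantile normalization, cyclic loess or voom and 0 without the trend. Without the trend, 8 genes were higher with drug at 40 mM. The only sign change among named genes with a call was UBB, lower with glutamine with drug (-0.09) and 0.00 under cyclic loess. For named genes, 3100 of the alternative values kept direction and side, 173 lost the call, 47 gained it and 99 changed sign without a call. Apart from smaller groups when a library was left out, the cause was not tested. The numbers did not pair the samples (correlations of deviations -0.077 to 0.048 over 18 same-number pairs and -0.08 to 0.092 over 36 others); with the replicate block, 22 genes were higher with drug at 2 mM, 14 higher and 2 lower at 40 mM, 1 higher and 6 lower with glutamine without drug, 22 lower with drug, and 2 lower for the interaction. The fit with the compared groups only gives no interaction. Recovered reads were tested with voom and with no other count model. Precision rests on 3 libraries a group, whose spread exceeded counting noise.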
